A study of Mus musculus with 2 samples.

Results

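The 60 genes described here encode the machinery that builds the kinetochore, drives the spindle, switches mitosis on and off and packs the chromosomes. They were chosen by name from the deposited gene count table of a mouse liver cancer cell line, and all 60 names were found among its 52636 genes, on 19 chromosomes.

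In dividing cells, the inner kinetochore proteins sit on centromere chromatin through the cycle and, in mitosis, carry the outer kinetochore that grips spindle microtubules. The spindle checkpoint keeps the anaphase-promoting complex silent until every kinetochore is attached, and cyclin-bound Cdk1, the Aurora and Polo kinases and the kinesins drive the steps before and after. Many of these genes are transcribed late in the cell cycle under Foxm1, B-Myb and the MuvB complex, through promoter elements called the CHR and the CCAAT box, and their RNA is commonly read as a mark of proliferating cells, in liver tumours among others.

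The study compared 2 stable lines of Hepa1-6, a hepatocellular carcinoma line labelled with the mouse strain C57bl/6. The vector line had been infected with a control lentivirus labelled vector control-GFP-Puro, and the other with a virus labelled IRF8-overexpression-GFP-Puro; IRF8 is a transcription factor of the interferon regulatory factor family. Infection lasted 24 h, both lines were selected with 2 µg/ml puromycin and grown in medium with 10% serum, so GFP and the selection were common to both. The sources used here do not say whether each line is a clone or which promoter drives IRF8.

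Each group had 1 library, which leaves every difference without a replicate check, a test or a p-value. The library labelled IRF8 overexpression held 20042660 counted reads and the vector library 18118017. Irf8 itself had 1010 counts with vector and 1486 with IRF8, a ratio of 1.22 (1.13 to 1.32). The sources used here do not say whether reads of the viral IRF8 copy are counted under mouse Irf8, so this ratio may not measure the labelled overexpression. Each ratio divides CPM in the IRF8 library by CPM in the vector one, where CPM is the count divided by a library size scaled with TMM, in the usual units, and the values in parentheses are its exact 95% interval. Where a sentence gives 2 counts or levels of a gene without naming libraries, the vector library comes before the IRF8 library. That interval reflects counting error alone, and copies of a read made by PCR can make it too narrow. A gene counts as higher or lower when its interval excludes 1, and 2 size rules, 1.5-fold and 2-fold, are given beside that. In bulk RNA a change in the share of cells in mitosis and a change in RNA per cell cannot be told apart.

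Of 11 hepatocyte markers, the abundant ones were present in both libraries, including Krt18 with 39480 and 34258 counts and Hnf4a with 5784 and 3772, while Ttr, Apoa1 and Serpina1a had at most 15 counts in either library. The summed level of these markers was 5372 CPM with vector and 3594 CPM with IRF8, so it was lower where most of the mitotic genes were higher. Most of that sum came from Krt8, at 2060 and 1404 CPM, and Krt18, at 2273 and 1638 CPM. Both lie on chromosome 15, where the median log2 ratio of protein-coding genes was -0.31. Alb and Hnf4a, on chromosomes 5 and 2, had ratios of 0.38 and 0.54. Apoa1 and Serpina1a, with few counts, had ratios above 1. The part of this marker difference in the mitotic gene ratios was not tested. The 5 leukocyte markers summed to 8 and 5 counts, with Adgre1 and Cd3e at 0 in both libraries. The 3 endothelial markers summed to 62 and 32 counts, and the 4 stellate and fibroblast markers to 22 and 73 counts, of which Col1a1 gave 21 and 67. Ratios of 7 reference genes lay between 0.764 (Ppia) and 1.15 (Tbp).

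Most of the 60 genes were modestly higher in the IRF8 library, and the largest differences were in genes for long proteins. All 60 exceeded 1 CPM in both libraries. The interval lay above 1 for 39 genes (65.0%), below 1 for 10 (16.7%) and across 1 for 11. Over all 12468 measured genes, those averaging 1 CPM or more, 31.1% were higher and 32.7% lower by the same rule. By the 1.5-fold rule 10 mitotic genes (16.7%) were higher and 0 lower, against 10.4% and 9.42% of all measured genes. By the 2-fold rule 4 were higher (6.67%) and 0 lower, against 4.27% and 3.64%. The share past the 2-fold rule therefore lay near that of all genes, and the share with an interval above 1 lay farther from it. Raising the filter to an average of 5 CPM lowered the shares of all genes past either size rule. With that filter 32.2% of all genes had an interval above 1 and 36.6% below 1. There 4 of 59 mitotic genes and 2.15% of all genes were higher by the 2-fold rule. By the 1.5-fold rule these were 10 of 59 and 7.47%.

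The median log2 ratio of the 60 genes was 0.23, a ratio of 1.17, and that of all measured genes was 0.01. A ratio above 1 was seen in 44 of the 60 genes (73.3%) and in 50.9% of all measured genes. Summed over the 60 genes there were 95678 counts with vector and 130734 with IRF8, or 0.528% and 0.652% of all counts, and the ratio of the sums on the CPM scale was 1.135 (1.125 to 1.144). Scaling by total counts in place of TMM moved the median of all genes to 0.13 on the log2 scale and that of the 60 genes to 0.35. Under that scaling 43 mitotic genes were higher and 6 lower, while 43.3% of all genes were higher and 23.3% lower. By the 1.5-fold rule 16 of the 60 were higher, against 14.6% of all genes, so both shares rose.

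**Figure D1:**
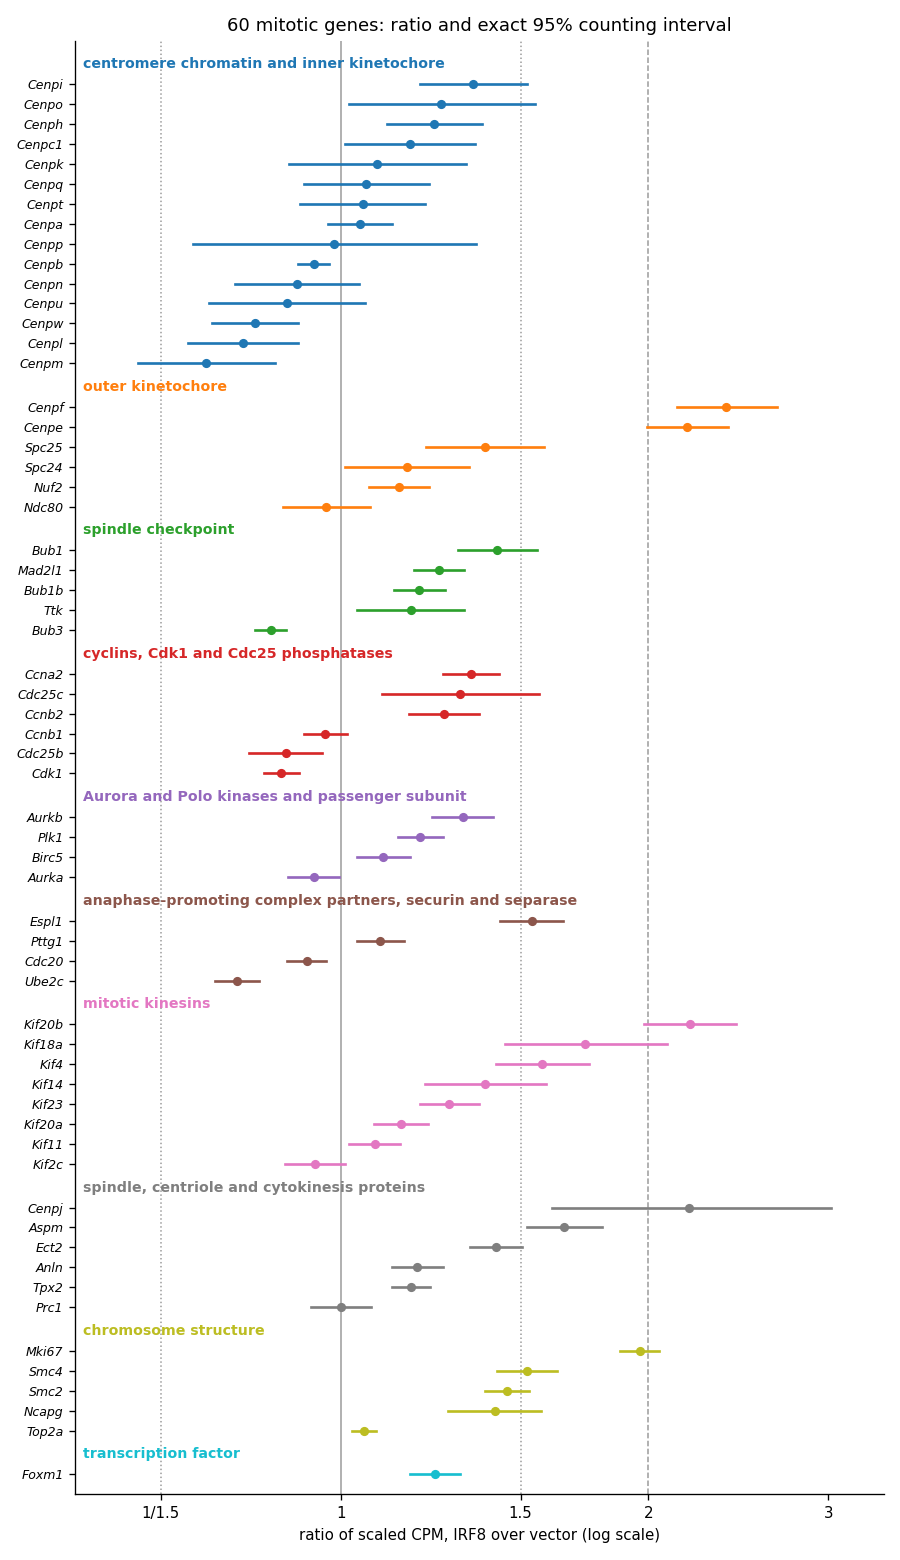
Ratio of scaled CPM, IRF8 over vector, on a log axis for each of the 60 genes, grouped by role, with points for the ratio and bars for the exact 95% counting interval of 1 library against 1. Ratios run from 0.739 (Cenpm) to 2.38 (Cenpf), and the genes past the dashed 2-fold line are Cenpf, Kif20b, Cenpj and Cenpe. Under scaling by total counts Cenpb, Cdc20, Aurka, Ccnb1, Kif2c, Ndc80 and Cenpp lie above 1.

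**Figure D2:**
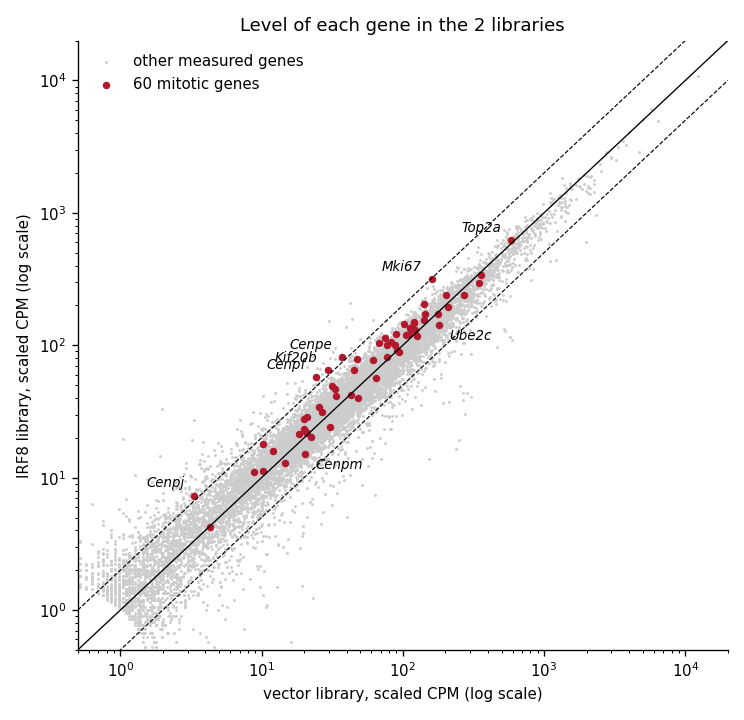
Scaled CPM of every measured gene in the vector library (x) and the IRF8 library (y), both on log axes that begin at 0.5 CPM. Grey points are other measured genes, red points the 60 mitotic genes, the solid line marks equal levels and the dashed lines 2-fold differences. Most red points lie just above the solid line, and Mki67 is the abundant gene nearest the upper dashed line.

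The promoters of 7 genes are shown because they stand at both ends of the range of ratios, and were chosen after their values were seen: the 5 genes with the highest ratios (Cenpf, Kif20b, Cenpj, Cenpe and Mki67) and 2 abundant genes whose ratios lay below 1 (Cdk1 and Ube2c). Each sequence runs 5′ to 3′ from 200 bases before to 30 bases after the gene's RefSeq start (build GRCm38.p6). Capitals mark matches to a CHR-type element, TTTGAA or TTCGAA, and to a CCAAT box, CCAAT, on either strand, so that TTCAAA and ATTGG are matches on the other strand. In Ube2c the matches CCAAT and ATTGG overlap by 2 bases.
Cenpf: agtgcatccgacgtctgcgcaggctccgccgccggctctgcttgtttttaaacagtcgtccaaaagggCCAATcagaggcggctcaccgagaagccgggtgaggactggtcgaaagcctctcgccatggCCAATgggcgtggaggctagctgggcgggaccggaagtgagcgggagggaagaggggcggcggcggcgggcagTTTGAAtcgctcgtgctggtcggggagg
Kif20b: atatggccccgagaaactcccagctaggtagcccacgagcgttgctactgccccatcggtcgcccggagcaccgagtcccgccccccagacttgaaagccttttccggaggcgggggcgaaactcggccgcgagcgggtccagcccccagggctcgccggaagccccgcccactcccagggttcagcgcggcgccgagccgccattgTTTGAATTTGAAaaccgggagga
Cenpj: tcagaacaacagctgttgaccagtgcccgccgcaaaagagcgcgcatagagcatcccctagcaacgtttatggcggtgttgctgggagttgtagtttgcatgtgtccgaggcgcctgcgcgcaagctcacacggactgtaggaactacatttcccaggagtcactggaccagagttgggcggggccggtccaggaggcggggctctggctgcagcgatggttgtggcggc
Cenpe: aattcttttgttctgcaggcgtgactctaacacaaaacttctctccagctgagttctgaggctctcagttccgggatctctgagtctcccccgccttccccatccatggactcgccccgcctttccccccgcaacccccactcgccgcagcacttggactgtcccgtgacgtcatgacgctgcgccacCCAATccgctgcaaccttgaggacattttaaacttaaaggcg
Mki67: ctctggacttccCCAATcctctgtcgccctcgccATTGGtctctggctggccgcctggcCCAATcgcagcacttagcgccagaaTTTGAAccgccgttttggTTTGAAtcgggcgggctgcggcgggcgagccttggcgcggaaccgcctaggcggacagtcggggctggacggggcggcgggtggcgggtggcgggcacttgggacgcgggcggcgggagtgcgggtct
Cdk1: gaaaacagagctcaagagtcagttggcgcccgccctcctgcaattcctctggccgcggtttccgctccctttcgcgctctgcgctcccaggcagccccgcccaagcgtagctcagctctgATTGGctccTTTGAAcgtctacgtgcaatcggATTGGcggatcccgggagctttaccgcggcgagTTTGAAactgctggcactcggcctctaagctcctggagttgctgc
Ube2c: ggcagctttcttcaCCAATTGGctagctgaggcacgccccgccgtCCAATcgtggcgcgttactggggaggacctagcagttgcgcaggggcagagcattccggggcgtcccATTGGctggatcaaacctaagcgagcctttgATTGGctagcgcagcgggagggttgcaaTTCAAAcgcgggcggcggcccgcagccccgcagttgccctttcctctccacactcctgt
These stretches lie at chr1:189688057-189688286, minus strand (Cenpf), chr19:34922158-34922387, plus strand (Kif20b), chr14:56571817-56572046, minus strand (Cenpj), chr3:135212363-135212592, plus strand (Cenpe), chr7:135716350-135716579, minus strand (Mki67), chr10:69352883-69353112, minus strand (Cdk1) and chr2:164769729-164769958, plus strand (Ube2c). For Cenpj the RefSeq start lies inside the span of the deposited gene.

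The genes with the highest ratios did not share a layout of these letters. Cenpf held TTTGAA beginning at base 3 after the start, with CCAAT beginning 132 and 71 bases before it. Kif20b held TTTGAA at bases 8 and 14 back to back and no CCAAT, Cenpe held a CCAAT 12 bases before the start and no CHR-type element, and Cenpj held neither. Mki67 held 2 copies of TTTGAA and 3 CCAAT matches. The genes with ratios below 1 held both kinds as well, with 2 copies of TTTGAA in Cdk1 and 1 CHR-type element beside several CCAAT matches in Ube2c.

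Of the 60 genes, 52 had a promoter in the RefSeq table, in windows of 250 bases before to 50 bases after the start. A CHR-type element was found in 34 of the 52 genes, which is 65.4% (exact 95% interval 50.9 to 78.0), and in 21.7% of all 27025 genes of the table. A CCAAT box was found in 38, or 73.1% (59.0 to 84.4), against 41.1% of all genes, and both were found in 30, or 57.7% (43.2 to 71.3), against 8.61%. In the 250 bases before the start alone, 38.5% of the mitotic genes held a CHR-type element, against 19.6% of all genes, since many of the matches in mitotic promoters begin just after the start.

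Higher genes were found with and without these letters, while most of the lower genes held them. The median log2 ratio was 0.24 in the 34 genes with a CHR-type element, of which 20 were higher and 9 lower. In the 18 genes without one it was 0.16, with 11 higher and 1 lower. In the 38 genes with a CCAAT box the median was 0.23, with 22 higher and 9 lower. In the 14 genes without one it was 0.16, with 9 higher and 1 lower. These splits were not tested. A match is a description of the sequence and not evidence of a bound site.

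Centromere chromatin and the inner kinetochore showed no common direction. Of the 15 genes, 4 were higher, 4 were lower and 7 had an interval that included 1, and none passed the 1.5-fold rule. The median log2 ratio was 0.06, and summed counts were 12401 with vector and 14595 with IRF8, a ratio of 0.977 (0.954 to 1.00). Cenpa, the histone variant that marks the centromere, had 1351 counts with vector and 1698 with IRF8, a ratio of 1.04 (0.971 to 1.12). Cenpb, which binds a motif in centromeric satellite DNA, was the most abundant of the group with 6212 and 7038 counts and a ratio of 0.941 (0.909 to 0.974), which moved to 1.02 under scaling by total counts. Cenpc1 encodes CENP-C, the bridge from centromere nucleosomes to the outer kinetochore, and had 319 and 449 counts and a ratio of 1.17 (1.01 to 1.35).

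In the subcomplex of CENP-H, CENP-I, CENP-K and CENP-M, Cenpi (ENSMUSG00000031262, chrX:134308084-134362639, plus strand) had the highest ratio of the inner kinetochore and Cenpm (ENSMUSG00000068101, chr15:82233779-82244747, minus strand) the lowest of all 60 genes, though neither order held with chromosome medians removed. Cenpi had 444 counts with vector and 721 with IRF8, a ratio of 1.35 (1.196 to 1.52). Cenpm had 355 counts with vector and 316 with IRF8, a ratio of 0.739 (0.633 to 0.863), and with chromosome medians removed it stood at 0.919 with an interval that included 1, above Ube2c and Cenpl. Cenph had 580 and 862 counts and a ratio of 1.23 (1.11 to 1.37), and Cenpk had 179 and 234 counts and 1.09 (0.890 to 1.33).

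Cenpl and Cenpn encode the partners that read the centromere nucleosome. Cenpl had 527 counts with vector and 509 with IRF8, at 30.4 and 24.3 CPM, and a ratio of 0.802 (0.709 to 0.908). Cenpn had 390 and 426 counts and a ratio of 0.907 (0.789 to 1.04), so of these partners Cenpl was lower and the interval of Cenpn included 1. The histone-fold partners are Cenpt and Cenpw. Cenpw had 841 counts with vector and 835 with IRF8 and a ratio of 0.825 (0.748 to 0.908), whose interval included 1 with chromosome medians removed, and Cenpt had 362 and 458 counts and 1.05 (0.913 to 1.21). In the subcomplex that holds CENP-O, CENP-P, CENP-Q and CENP-U, Cenpo had 153 and 231 counts and a ratio of 1.25 (1.02 to 1.55). With chromosome medians removed its interval included 1. The intervals of Cenpp, Cenpq and Cenpu included 1, with ratios of 0.986, 1.06 and 0.886. Cenpp, at 75 and 89 counts, was the least abundant of the 60 genes by mean CPM, and its interval ran from 0.717 to 1.36. Exons of Cenpo, Cenpp and Cenpu overlap genes on the opposite strand over 22.5%, 12.6% and 26.7% of their bases, and the counts cannot be divided between the strands without the strand setting.

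The outer kinetochore held the gene with the highest ratio, and its 2 very large proteins stood apart from the compact Ndc80 complex. Cenpf (ENSMUSG00000026605, chr1:189640606-189688086, minus strand), a large coiled-coil protein of the kinetochore's outer corona, had 419 counts with vector and 1203 with IRF8, at 24.1 and 57.5 CPM. Its ratio was 2.38 (2.13 to 2.67), the highest of the 60 genes, and it stayed at or above 2 in every alternative tried, from 2.05 to 2.60. Cenpe (ENSMUSG00000045328, chr3:135212537-135273611, plus strand), the kinesin that carries chromosomes to the metaphase plate, had 647 counts with vector and 1701 with IRF8, at 37.3 and 81.3 CPM, a ratio of 2.18 (1.99 to 2.39). The ratio of Cenpe fell under 2, to 1.94, when the median of each chromosome was removed. It was also under 2 with the trend on coding length removed.

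The 4 genes of the Ndc80 complex, which binds microtubules directly, had smaller ratios that were not alike. Spc25 had 363 counts with vector and 605 with IRF8, a ratio of 1.38 (1.21 to 1.58). Its partner Spc24 had 349 and 488 counts and a ratio of 1.16 (1.01 to 1.34), whose interval included 1 with chromosome medians removed. Nuf2 had 1532 and 2104 counts and a ratio of 1.14 (1.07 to 1.22). Ndc80, the partner of Nuf2, had 752 and 877 counts and a ratio of 0.969 (0.878 to 1.07), an interval that included 1. In all, 5 of the 6 outer kinetochore genes were higher and none lower, with a median log2 ratio of 0.34, and summed counts went from 4062 to 6978.

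Of the 5 spindle checkpoint genes, 4 were higher and 1 lower, none by 1.5-fold. Bub1 (ENSMUSG00000027379, chr2:127801122-127831865, minus strand), a kinase that marks centromeric chromatin and recruits checkpoint proteins, had 787 counts with vector and 1349 with IRF8, a ratio of 1.42 (1.30 to 1.56). Bub1b, which encodes BubR1, had 1957 and 2814 counts and a ratio of 1.19 (1.13 to 1.27). Mad2l1, which encodes the Mad2 protein that holds Cdc20 inactive, had 2089 and 3137 counts and a ratio of 1.25 (1.18 to 1.32). Ttk, the kinase that starts checkpoint signalling, had 466 and 657 counts and a ratio of 1.17 (1.04 to 1.32). Its interval included 1 with chromosome medians removed and with the trend on coding length removed.

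Bub3, the binding partner of Bub1 and BubR1, went the other way. It had 6011 counts with vector and 6183 with IRF8, at 346 and 296 CPM, a ratio of 0.854 (0.824 to 0.885). Bub3 alone gave more of the checkpoint counts than any other member, so the sum over the 5 genes, 11310 and 14140 counts, had a ratio of 1.04 (1.01 to 1.06) although the median gene stood at 1.19.

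The cyclins and their kinase did not move together. Ccna2, which encodes cyclin A2, had 1563 counts with vector and 2525 with IRF8, a ratio of 1.34 (1.26 to 1.43), and Ccnb2, which encodes cyclin B2, had 1064 and 1617 counts and a ratio of 1.26 (1.17 to 1.36). Ccnb1, which encodes the main mitotic cyclin, had 3109 and 3617 counts and a ratio of 0.966 (0.921 to 1.01). Cdk1 (ENSMUSG00000019942, chr10:69335146-69352938, minus strand), the kinase these cyclins bind, had 4727 counts with vector and 4980 with IRF8, at 272 and 238 CPM, a ratio of 0.875 (0.841 to 0.911). Cyclins A2 and B2 were thus higher and their kinase lower, though with chromosome medians removed Cdk1 stood at 0.979 with an interval that included 1, and the interval of cyclin B1 included 1.

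Cdc25c had 210 counts with vector and 331 with IRF8, a ratio of 1.31 (1.10 to 1.56), and Cdc25b had 1116 and 1187 counts and a ratio of 0.883 (0.813 to 0.959); both encode phosphatases that activate Cdk1. Under scaling by total counts Cdc25b stood at 0.962 with an interval that included 1. The 6 genes summed to 11789 and 14257 counts, a ratio of 1.00 (0.980 to 1.03), with a median log2 ratio of 0.14. Of the words of 32 bases in the longest Ccnb1 transcript, 46.8% also occur at other annotated genes, led by a Ccnb1 pseudogene, and 16.4% of those of Ccna2 lie in the overlapping gene Exosc9. The sources used here do not say how the authors treated reads that match such copies.

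Among the mitotic kinases, Aurora B and Polo were higher and Aurora A slightly lower, though not under scaling by total counts. Aurkb, the catalytic subunit of the chromosomal passenger complex that corrects wrong attachments, had 1335 counts with vector and 2116 with IRF8, a ratio of 1.32 (1.23 to 1.41). Birc5, which encodes the passenger subunit survivin, had 1924 and 2550 counts and a ratio of 1.10 (1.04 to 1.17). It moved to 1.01 with chromosome medians removed, with an interval that included 1. Plk1, the Polo kinase of centrosomes and kinetochores, had 2501 and 3605 counts and a ratio of 1.197 (1.14 to 1.26). Aurka, the Aurora kinase of the spindle poles, had 2179 counts with vector and 2469 with IRF8, a ratio of 0.941 (0.888 to 0.997) whose interval ended just under 1, and it moved to 1.02 under scaling by total counts and to 1.00 with the expression trend removed.

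Of the genes that trigger anaphase, the ubiquitin enzyme Ube2c and the activator Cdc20 were lower, Cdc20 not under scaling by total counts, and securin and separase were higher, securin not with chromosome medians removed. Ube2c (ENSMUSG00000001403, chr2:164769898-164778822, plus strand), the ubiquitin-conjugating enzyme of the anaphase-promoting complex, had 3139 counts with vector and 2993 with IRF8, at 181 and 143 CPM, a ratio of 0.792 (0.753 to 0.833). Cdc20, the activator of that complex in mitosis, had 3655 and 4076 counts and a ratio of 0.926 (0.885 to 0.969), which moved to 1.01 under scaling by total counts. Pttg1, which encodes securin, had 2467 and 3249 counts and a ratio of 1.09 (1.04 to 1.15), which moved to 1.00 with chromosome medians removed. Espl1 (ENSMUSG00000058290, chr15:102296293-102324356, plus strand), which encodes separase, the protease that securin restrains and that cuts cohesin, had 1174 counts with vector and 2174 with IRF8, at 67.6 and 104 CPM, a ratio of 1.54 (1.43 to 1.65).

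Espl1 alone of these 4 genes passed the 1.5-fold rule. It lies on chromosome 15, where the median log2 ratio of the 458 measured protein-coding genes was -0.31, and Cenpm lies on the same chromosome. With the median of each chromosome removed, the ratio of Espl1 was 1.91. Under that setting the median log2 ratio of the 4 anaphase genes was -0.06 in place of 0.01. Of the exonic bases of Ube2c, 22.8% overlap Tnnc2 on the opposite strand, and Tnnc2 had 0 counts in both libraries.

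Of the 8 mitotic kinesins, 7 were higher and none lower, and 3 passed the 1.5-fold rule. Kif20b (ENSMUSG00000024795, chr19:34922361-34975745, plus strand), a kinesin of late mitosis and cytokinesis, had 511 counts with vector and 1351 with IRF8, at 29.4 and 64.6 CPM, a ratio of 2.20 (1.98 to 2.44). It did not pass the 2-fold rule with the trend on coding length removed. Kif18a (ENSMUSG00000027115, chr2:109280738-109341747, plus strand), which damps chromosome movement at the metaphase plate, had 179 counts with vector and 374 with IRF8, a ratio of 1.74 (1.45 to 2.08). Kif4 (ENSMUSG00000034311, chrX:100625737-100727214, plus strand), a chromosome-bound kinesin that also works at the central spindle, had 545 counts with vector and 1033 with IRF8, a ratio of 1.57 (1.42 to 1.75). These 3 were low to moderate in abundance, between 10.3 and 31.4 CPM in the vector library. With chromosome medians removed Kif4 stood at 1.43, under the 1.5-fold rule.

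The other 5 kinesins had smaller ratios. Kif14, a kinesin of cytokinesis, had 346 and 577 counts and a ratio of 1.39 (1.21 to 1.59), and Kif23, a subunit of centralspindlin, had 1435 and 2209 counts and a ratio of 1.28 (1.196 to 1.37). Kif20a, which moves the passenger complex to the central spindle, had 1824 and 2517 counts and a ratio of 1.15 (1.08 to 1.22). Kif11, the motor that pushes the spindle poles apart, was the most abundant with 2108 and 2742 counts and a ratio of 1.08 (1.02 to 1.14). Kif2c, which takes microtubule ends apart at centromeres, had 1628 and 1851 counts and a ratio of 0.944 (0.883 to 1.01), an interval that included 1. The median log2 ratio of the 8 kinesins was 0.41.

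Of the 6 spindle, centriole and cytokinesis genes, 5 were higher and none lower. Cenpj (ENSMUSG00000064128, chr14:56526761-56575425, minus strand), which despite its name acts in centriole growth, had 58 counts with vector and 153 with IRF8, at 3.34 and 7.32 CPM. Its ratio was 2.19 (1.61 to 3.02), with the widest interval among the genes past the 2-fold rule, and fell under 2 on the log2(CPM + 1) scale, to 1.92, and with the expression trend removed, to 1.93. Aspm (ENSMUSG00000033952, chr1:139454772-139494091, plus strand), a spindle pole protein, had 827 counts with vector and 1648 with IRF8, at 47.6 and 78.8 CPM, a ratio of 1.66 (1.52 to 1.80). Ect2, the exchange factor that activates RhoA for the cleavage furrow, had 1775 and 3033 counts and a ratio of 1.42 (1.34 to 1.505).

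Smaller ratios were found for the other 3 genes. Anln, which encodes the furrow scaffold anillin, had 1986 and 2844 counts and a ratio of 1.19 (1.12 to 1.26). Tpx2, the activator of Aurora A on the spindle, had 3541 and 4998 counts and a ratio of 1.17 (1.12 to 1.22), although Aurka itself stood at 0.941. Prc1, which bundles the microtubules of the central spindle, had 1589 and 1916 counts and a ratio of 1.00 (0.936 to 1.07), so its 2 libraries could not be told apart at this depth.

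All 5 genes of chromosome structure were higher, and the group had the highest median of any role with more than 1 gene, 0.54 on the log2 scale. All 5 also have coding sequences of at least 3000 bases, a length that no inner kinetochore gene reaches. Role and coding length cannot be told apart between these groups. Mki67 (ENSMUSG00000031004, chr7:135689784-135716361, minus strand), the proliferation marker Ki-67 that coats mitotic chromosomes, had 2797 counts with vector and 6607 with IRF8, at 161 and 316 CPM, a ratio of 1.96 (1.88 to 2.05). Smc4 (ENSMUSG00000034349, chr3:69004738-69034623, plus strand) and Smc2, the core of condensin, had close ratios. Smc4 had 1290 counts with vector and 2364 with IRF8, a ratio of 1.52 (1.42 to 1.63), and Smc2 had 2465 and 4320 counts and a ratio of 1.46 (1.39 to 1.53). Ncapg, a subunit of condensin I, had 571 and 973 counts and a ratio of 1.42 (1.27 to 1.57), so the intervals of the 3 condensin genes overlapped. With chromosome medians removed Mki67 passed the 2-fold rule at 2.06 and Smc4 left the 1.5-fold rule at 1.35.

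Top2a, the topoisomerase that untangles sister chromatids, was the most abundant of the 60 genes and had the smallest ratio of this group. It had 10197 counts with vector and 12939 with IRF8, at 587 and 619 CPM, a ratio of 1.05 (1.03 to 1.08). That ratio was 0.984 with the trend on gene length removed. It was 0.964 (0.9395 to 0.9897) with chromosome medians removed and 0.957 (0.932 to 0.982) with the trend on coding length removed. Summed counts of the 5 genes were 17320 with vector and 27203 with IRF8, a ratio of 1.30 (1.28 to 1.33).

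Foxm1, a transcription factor that drives many genes of this kind, had 2070 counts with vector and 3083 with IRF8, at 119 and 147 CPM, a ratio of 1.24 (1.17 to 1.31). Its interval included the median ratio of the 60 genes.

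Within each library the levels of these genes differed far more between genes than between libraries. Per kilobase and on the TPM scale, which is computed within each library from the deposited gene length, Cdc20 was the highest in both libraries, at 294 TPM with vector. It was followed in the vector library, with both levels given, by Cenpb at 191 and 198 TPM, Pttg1 at 185 and 223 TPM, Ube2c at 181 and 158 TPM, Plk1 at 171 and 225 TPM and Top2a at 169.9 and 197 TPM. The lowest in the vector library were Cenpj at 1.79 and 4.32 TPM and Kif18a at 2.73 and 5.23 TPM. The top of the range thus held genes with ratios below 1 (Cdc20, Cenpb, Ube2c) and above 1 (Pttg1, Plk1, Top2a).

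Subunits of 1 complex were not at 1 level. Within the Ndc80 complex, Ndc80 stood at 51.3 and 54.8 TPM, Nuf2 at 36.3 and 45.6 TPM, Spc24 at 20.4 and 26.1 TPM and Spc25 at 17.1 and 26.1 TPM. Cenpf was the lowest outer kinetochore gene per kilobase in both libraries, at 4.08 and 10.7 TPM, and Cenpe stood at 11.3 and 27.1 TPM. The genes past the 2-fold rule all lay at or under 11.3 TPM in the vector library. That level is also the denominator of the ratio that picked them, so the 2 are not independent. Other genes in that range did not pass, among them Cenpo at 3.16 TPM and Cenpp at 4.39 TPM with vector. The deposited length is the union of a gene's exons in 54 of the 60 genes, so exonic bases that these cells leave out of the transcript lower a gene's TPM.

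**Figure D3:**
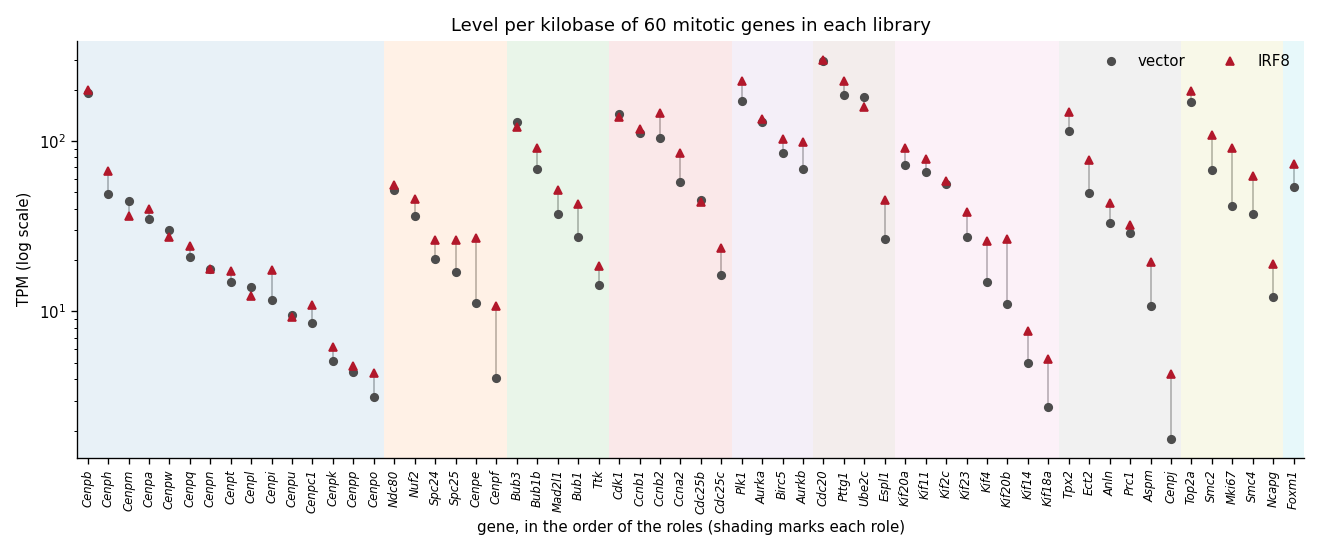
Level per kilobase, in TPM on a log axis, of each of the 60 genes in the vector library (circles) and the IRF8 library (triangles), ordered by role and, within a role, by vector level. Levels run from 1.79 TPM (Cenpj, vector) up to Cdc20, the highest gene in both libraries, and the longest joining lines belong to genes low in the vector library such as Cenpf, Cenpj and Kif20b.

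Genes with longer coding sequences had higher ratios. All 17 genes with a coding sequence of at least 3000 bases were higher, with a median log2 ratio of 0.61, and 9 of them passed the 1.5-fold rule. Of the 16 genes between 1500 and 3000 bases, 10 were higher and 2 lower, with a median of 0.23 and 1 past the 1.5-fold rule. Of the 27 genes under 1500 bases, 12 were higher and 8 lower, with a median of 0.08 and none past that rule. The 10 genes past the 1.5-fold rule had coding sequences of 2658 to 9531 bases, and the 10 lower genes had 258 to 1797 bases.

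The longest coding sequences of the 60 are those of Mki67 (9531 bases), Aspm (9366), Cenpf (8991), Cenpe (7413), Espl1 (6354) and Kif20b (5322), and all 6 passed the 1.5-fold rule. Top2a, at 4584 bases, was long with a ratio near 1, and Kif18a passed the rule at 2658 bases. Across the 60 genes the rank correlation of coding length with log2 ratio was 0.647, and Pearson's coefficient on log length was 0.688.

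Over all measured protein-coding genes the direction was the same and the coefficient smaller, a rank correlation of 0.180 across 11093 genes. Their median log2 ratio was -0.07 under 1500 bases, 0.05 between 1500 and 3000 and 0.13 from 3000 up, and in the last band 47.6% were higher, 24.1% lower and 14.2% past the 1.5-fold rule. These coefficients describe genes of the same 2 libraries, which are not independent replicates, and they carry no test. With the coding-length trend of all protein-coding genes removed, 36 of the 60 mitotic genes were higher and 11 lower. Of the 60, 6 passed the 1.5-fold rule and 2, Cenpf and Cenpj, the 2-fold rule. Under that setting 31.2% of all measured genes were higher and 32.1% lower. By the 1.5-fold rule 10.1% of all measured genes were higher, and by the 2-fold rule 4.07%. The mitotic genes thus lay near all genes by both size rules. The mitotic genes no longer past the 1.5-fold rule were Aspm at 1.42, Kif4 at 1.46, Espl1 at 1.36 and Smc4 at 1.40.

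**Figure D4:**
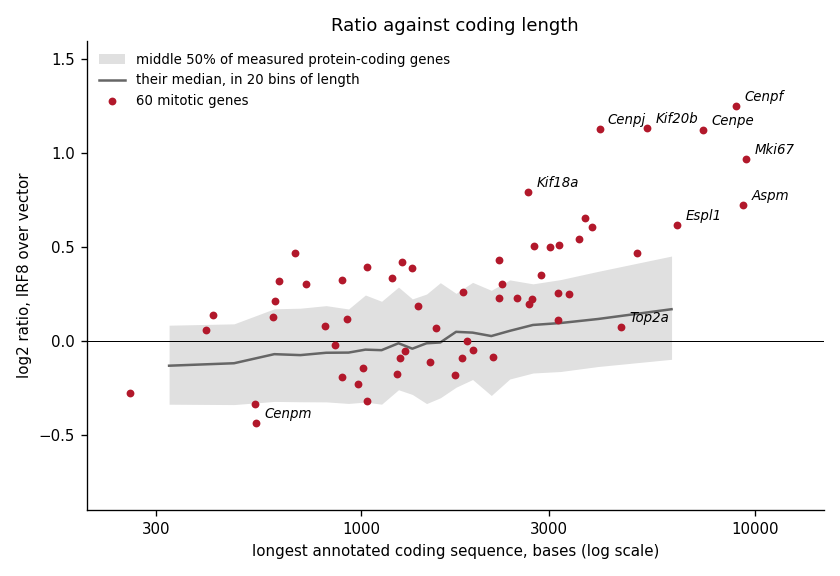
Log2 ratio, IRF8 over vector, against the longest annotated coding sequence in bases (log axis) for the 60 mitotic genes (red points), with the median (line) and middle 50% (shading) of measured protein-coding genes in 20 bins of length. The red points from 3000 bases up all lie above 0, most of them over the shaded band, and those under 1500 bases scatter around it.

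Abundance did not order the ratios in the same way. Among the 60 genes the rank correlation of mean CPM with log2 ratio was -0.135, against -0.215 over 11131 measured protein-coding genes. Of the 22 mitotic genes at 100 CPM or more, 15 were higher and 6 lower, with a median log2 ratio of 0.17, while protein-coding genes in that range were higher in 27.0% and lower in 56.0% with a median of -0.12. Between 10 and 100 CPM, 22 of 35 mitotic genes were higher and 4 lower, with a median of 0.30, against 33.1% and 32.7% of protein-coding genes with a median of 0.01. By the 1.5-fold rule 1 of the 22 and 8 of the 35 were higher, against 1.06% and 6.81% of protein-coding genes. Under 10 CPM 1 of 3 mitotic genes passed that rule, against 23.5% of protein-coding genes.

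Shared sequence touched a minority of the genes. At least 10% of 32-base words occurred at another annotated gene in 12 of the 60, and exons overlapped another gene over at least 10% of their bases in 10. The 45 genes with neither had a median log2 ratio of 0.25, with 31 higher, 8 lower, 9 past the 1.5-fold rule and 4 past the 2-fold rule. Exons of Kif20a overlap Cdc23 on the opposite strand over 29.3% of their bases, and 27.4% of the words of Cdc20 and 18.6% of those of Plk1 also occur at other genes. Of the 10 genes past the 1.5-fold rule, Kif4 was the exception, with 15.1% of its exonic bases overlapping Pdzd11 on the opposite strand.

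Other genes of the same pathways, held in 8 lists that contain none of the 60, were more evenly spread than the 60, though more were higher than lower. Of 125 listed genes 124 were found and 123 measured, and 53 were higher and 24 lower, with 11 higher and 3 lower by the 1.5-fold rule. Of all measured genes 31.1% were higher and 32.7% lower. By the 1.5-fold rule 10.4% were higher and 9.42% lower. The counts of each list below are to be read beside these shares. Medians of the log2 ratio ran from -0.03 to 0.22 over the 8 lists, all under the 0.23 of the 60 genes.

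Among 19 other kinetochore and centromere genes, 8 were higher and 4 lower, with a median of 0.12. Mis18a (ENSMUSG00000022978, chr16:90719312-90727404, minus strand), which helps to load new CENP-A, had 1044 counts with vector and 766 with IRF8, a ratio of 0.609 (0.554 to 0.669). On chromosome 16 the median log2 ratio of the 348 measured protein-coding genes was -0.35. The part of that shift in the ratio of Mis18a was not tested. Knl1, the large scaffold that recruits Bub proteins, had 264 and 555 counts and a ratio of 1.75 (1.505 to 2.03).

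Of 9 other passenger, shugoshin and checkpoint genes, 5 were higher and 2 lower, with a median of 0.22. Sgo2a, which protects centromeric cohesion, had 224 counts with vector and 534 with IRF8, a ratio of 1.98 (1.69 to 2.32). Of 17 subunits and regulators of the anaphase-promoting complex, 5 were higher and 4 lower, with a median of 0.02. Anapc16, a small subunit, had 1427 and 1111 counts and a ratio of 0.646 (0.597 to 0.6998). It lies on chromosome 10, where the median log2 ratio of measured protein-coding genes was -0.16. Of 14 condensin and cohesin genes, 8 were higher and 4 lower, with a median of 0.19, and Pds5b, a cohesin regulator, had 1575 and 2885 counts and a ratio of 1.52 (1.43 to 1.62).

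Of 21 other spindle and cytokinesis genes, 14 were higher and 2 lower, with a median of 0.18. The kinesin Kif18b had 1089 and 2032 counts and a ratio of 1.55 (1.44 to 1.67), and the kinesin Kif15 had 433 and 792 counts and 1.52 (1.35 to 1.71). Depdc1a had 268 and 566 counts and a ratio of 1.75 (1.51 to 2.04), and Ckap2l, a spindle protein, had 463 and 844 counts and a ratio of 1.51 (1.35 to 1.70). Like the kinesins among the 60 genes, this list leaned toward the IRF8 library.

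The lists for mitotic entry and the earlier phases had medians close to 0. Of 12 mitotic entry genes, 3 were higher and 2 lower, with a median of 0.02, and Ccnf, which encodes cyclin F, had 952 and 1774 counts and a ratio of 1.55 (1.43 to 1.68). Of 15 measured cyclins, kinases, inhibitors and E2F genes of the earlier phases, 3 were higher and 4 lower, with a median of -0.03. In that list Ccne2, which encodes cyclin E2, had 545 and 1034 counts and a ratio of 1.58 (1.42 to 1.75), and E2f2 had 173 and 108 counts and a ratio of 0.518 (0.404 to 0.663). Of 16 genes for MuvB, B-Myb, repressor E2Fs and the factors that bind CCAAT boxes, 7 were higher and 2 lower, with a median of 0.13, and Rbl2, which encodes the pocket protein p130, had 247 and 463 counts and a ratio of 1.56 (1.33 to 1.82).

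**Figure D5:**
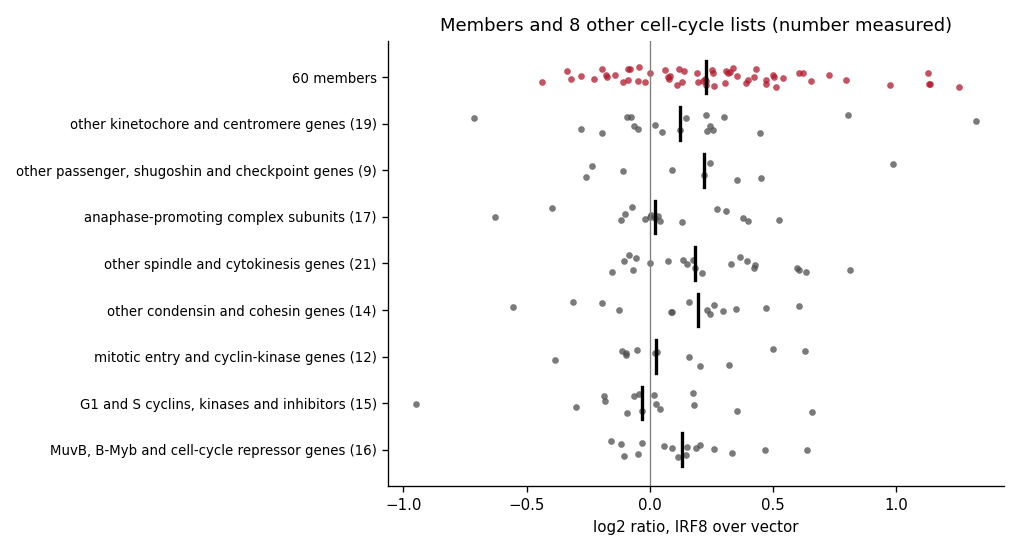
Log2 ratio, IRF8 over vector, of each measured gene (points) of the 60 mitotic genes and of 8 other cell-cycle lists, with bars at the median of each and the number measured in parentheses. The medians run from -0.03 for the cyclins and kinases of the earlier phases to 0.23 for the 60 genes, and the points of every list lie on both sides of 0.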

How the data were processed

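RNA-seq counts per gene were analysed from 1 library of each of 2 Hepa1-6 lines, grouped by the lentivirus named in the labels. The deposited values are whole-number counts, not normalized. Per the submitters' processing notes, HISAT2 2.0.5, featureCounts 1.5.0-p3 and mm10 were used. The annotation release, strand setting, read length and treatment of multiply matching reads were not given in these sources. Genes were matched by name; coordinates are those of the deposited table (mm10).

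TMM factors (0.958, vector, and 1.04, IRF8) came from edgeR 4.0.16 under R 4.3.3. Ratios of CPM carry exact 95% Clopper-Pearson intervals on the share of both libraries' counts, which cover counting error only, and genes averaging 1 CPM or more were measured. A count of 0 allows up to 3 counts, 0.173 CPM (vector) or 0.143 CPM (IRF8). With 1 library per group no quasi-likelihood test was made. The 2-fold rule and the coverage of the interval were tried on simulated counts that held counting error alone. Such counts cannot show how the rules behave with differences between replicate libraries. The 1.5-fold rule and the rule of an interval excluding 1 were not tried on them. Coding and shared sequence were taken from GENCODE M21, whose exon unions equalled the deposited length in 54 of the 60 genes; promoters came from RefSeq. Python 3.11.15, scipy 1.17.1 and statsmodels 0.14.6 were used.

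Genes in full were those past a size rule, lowest or highest in their role, or with an interval below 1, and, in other lists, up to 4 past the 1.5-fold rule; some of these are not reported here. The 60 genes and all lists were chosen with earlier results of these data known. Alternatives were other scalings (total counts, DESeq2 1.42.0 size factors, upper quartile), filters, thresholds and intervals, log2(CPM + 1), and removal of trends on expression, length or chromosome. Removing the coding-length trend and restricting to genes with little shared sequence were chosen after seeing the data.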

Additional observations from a re-analysis of the deposited data

How the results depend on the processing

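No gene had a replicate check, so the alternatives vary the processing of the same 2 libraries. The median log2 ratio of the 60 genes lay between 0.20 and 0.35 over the alternatives that gave one, and 0 of the 60 were lower by 1.5-fold in any of them. Of 600 gene ratios recomputed, 21 crossed 1, of which 9 belonged to genes whose reported interval excluded 1. These 9 were Cenpb (1.02), Cdc20 (1.01) and Aurka (1.02) under total counts, the same 3 genes with the expression trend removed (1.04, 1.01 and 1.00), and Top2a with the length trend (0.984), chromosome medians (0.964) or the coding-length trend (0.957) removed. With chromosome medians removed, the intervals of Cdk1, Pttg1, Birc5, Cenpw, Ttk, Spc24, Cenpm and Cenpo, which excluded 1, came to include it. Under total counts 16 genes passed the 1.5-fold rule and 6 were lower, against 14.6% and 23.3% of all genes. Median log2 ratios under that scaling were 0.27 for cyclins and Cdk1, 0.32 for Aurora and Polo kinases, 0.13 for anaphase genes, 0.50 for spindle and cytokinesis genes, 0.66 for chromosome structure and 0.43 for Foxm1. With the expression trend removed they were 0.30 (Aurora and Polo), 0.12 (anaphase), 0.48 (spindle and cytokinesis), 0.65 (chromosome structure) and 0.40 (Foxm1). The anaphase median was 0.092 with the length trend removed and -0.064 with chromosome medians removed, where spindle and cytokinesis genes stood at 0.28. No gene reached a 4-fold threshold (0 genes). With the coding-length trend removed 2 genes passed the 2-fold and 6 the 1.5-fold rule, against 4.07% and 10.1% of all measured genes. Medians under that setting were 0.17 (checkpoint) and 0.43 (chromosome structure). Among genes with little shared sequence, medians were -0.18 for cyclins and Cdk1, 0.38 for anaphase genes and 0.50 for spindle and cytokinesis genes. In the 250 bases before the start alone, 38.5% of promoters held a CHR-type element and 36.5% held both elements. The cause of these shifts was not tested, apart from the fewer genes or bases that some alternatives use by construction. No paired analysis was possible because each group has 1 library. Depth limits the least abundant genes, such as Cenpp and Cenpj, whose intervals are the widest.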
